A study of Mus musculus with 6 samples.

Results

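The 9 genes *Spi1*, *Cebpa*, *Cebpb*, *Cebpd*, *Gfi1*, *Runx1*, *Maf*, *Id2* and *Mitf* encode transcription factors that build or restrain the myeloid lineage, the branch of blood formation that yields macrophages and granulocytes. They were selected by name from the genes on the array with the differences between these samples already known, so their levels and calls are a description and support nothing by themselves. The array carried 12 probes for the 9 genes among 55681 probes, and 34787 gene names were tested. The exact gene name found 8 of the 9; *Spi1* stands on the array under its older name *Sfpi1* and was matched through its RefSeq accession. The cells were murine bone marrow–derived macrophages (BMDMs), grown from the marrow of mice for 7 days in medium conditioned by L929 cells, a source of macrophage colony-stimulating factor. Untreated BMDMs were compared with BMDMs given LPS, the bacterial ligand of TLR4, for 4 h at 100 ng/ml, and with BMDMs that also received 10 μM HBX41,108, an inhibitor of the deubiquitinase USP7, for 30 min before the same LPS (LPS+USP7i). The labels of the samples write the LPS dose per μl rather than per ml, and give the mice an age of 6 to 8 weeks, younger than in the study's methods. Nothing used here states whether cells given LPS alone, or no LPS, received the solvent of the inhibitor. Each group had 2 arrays, replicate 1 and replicate 2, which bounds how precisely any value is known.

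In the bone marrow, PU.1, the product of *Spi1*, and C/EBPα, the product of *Cebpa*, commit progenitors to the myeloid lineage, with RUNX1 acting upstream of PU.1. C/EBPβ and C/EBPδ belong to the same bZIP family as C/EBPα and take part in the inflammatory and acute-phase response, and the zinc finger repressor GFI1 favours granulocytes over monocytes and restrains inflammatory genes. c-MAF drives *Il10* and programs of resident macrophages, ID2 blocks E proteins by pairing with them without binding DNA, and MITF, with its relatives TFEB, TFE3 and TFEC, controls genes of lysosomes and osteoclasts.

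The arrays carried the marks of macrophages. All 9 macrophage markers (*Adgre1*, *Cd68*, *Csf1r*, *Mertk*, *Fcgr1*, *Lyz2*, *Cd14*, *Itgam* and *Mpeg1*) were well above background on all 6 arrays. Their summed normalized signal on the linear scale was 902200 and 900400 (untreated), 864000 and 894700 (LPS), and 753700 and 709600 (LPS+USP7i). The sum was lowest on the 2 arrays of LPS+USP7i, and its part in the results was not tested. Of 10 markers of neutrophils and their precursors, 7 were above background on every array. The sum of the 10 was 9337 and 12880 (untreated), 8743 and 16390 (LPS), and 11420 and 16270 (LPS+USP7i). The sum was thus higher in replicate 2 of each group, while *Ly6g* and *Mpo* were lower there. Dendritic cell markers summed to 45050 and 38060, 25340 and 24860, and 51410 and 34660 in the same order, with the probe of *Siglech* the brightest on every array. *Zbtb46*, the only one called with LPS, was higher (at least 5.65-fold, adjusted p = 0.00435), while *Flt3*, *Cd209a* and *Xcr1* were above background on no array. Osteoclast markers, with the probe of *Acp5* the brightest, summed to between 30850 and 38570, with *Calcr* above background on no array. *Ocstamp* of this list was higher with LPS in limma (1.55, adjusted p = 0.0157) and lower with the inhibitor than with LPS (−1.21, adjusted p = 0.0468). *Pf4*, a platelet factor gene listed for megakaryocytes, had log2 signals of 15.97 and 17.21 (untreated), 15.72 and 16.86 (LPS), and 16.29 and 17.19 (LPS+USP7i), higher in replicate 2 of each group, and the sum of its list is not reported here. The T and NK cell, B cell, mast cell and fibroblast lists each summed to at most 794.7 on every array. *Cd3g*, *Cma1*, *Col1a1*, *Col3a1* and *Pdgfra* of these lists were above background on no array. Fewer cells of a type and less RNA per cell cannot be told apart in these bulk samples.

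Of the 9 factors, 3 were higher (*Spi1*, *Cebpd* and *Gfi1*) and 3 lower (*Cebpa*, *Runx1* and *Id2*) in LPS than in untreated cells at an adjusted p value under 0.05 in limma. The background, the share of all genes called in the same comparison, was 7.98% higher and 12.8% lower. In LPS+USP7i compared with LPS, 3 factors were higher (*Cebpa*, *Cebpb* and *Runx1*) and 3 were lower (*Cebpd*, *Gfi1* and *Maf*), beside a background of 5.52% higher and 4.27% lower. In LPS+USP7i compared with untreated cells, *Cebpb* was higher and *Maf* was lower, beside a background of 6.16% and 8.71%. The median log2 difference of the 9 factors was 0.20, −1.001 and 0.34 in these 3 comparisons, against medians of 0.0016, 0.00091 and −0.0021 over all 34787 genes. The first pair of comparisons shares the LPS arrays, so a gene whose LPS values lie apart by error alone moves in opposite directions in them, and their values are given side by side without a test of the relation.

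**Figure D1:**
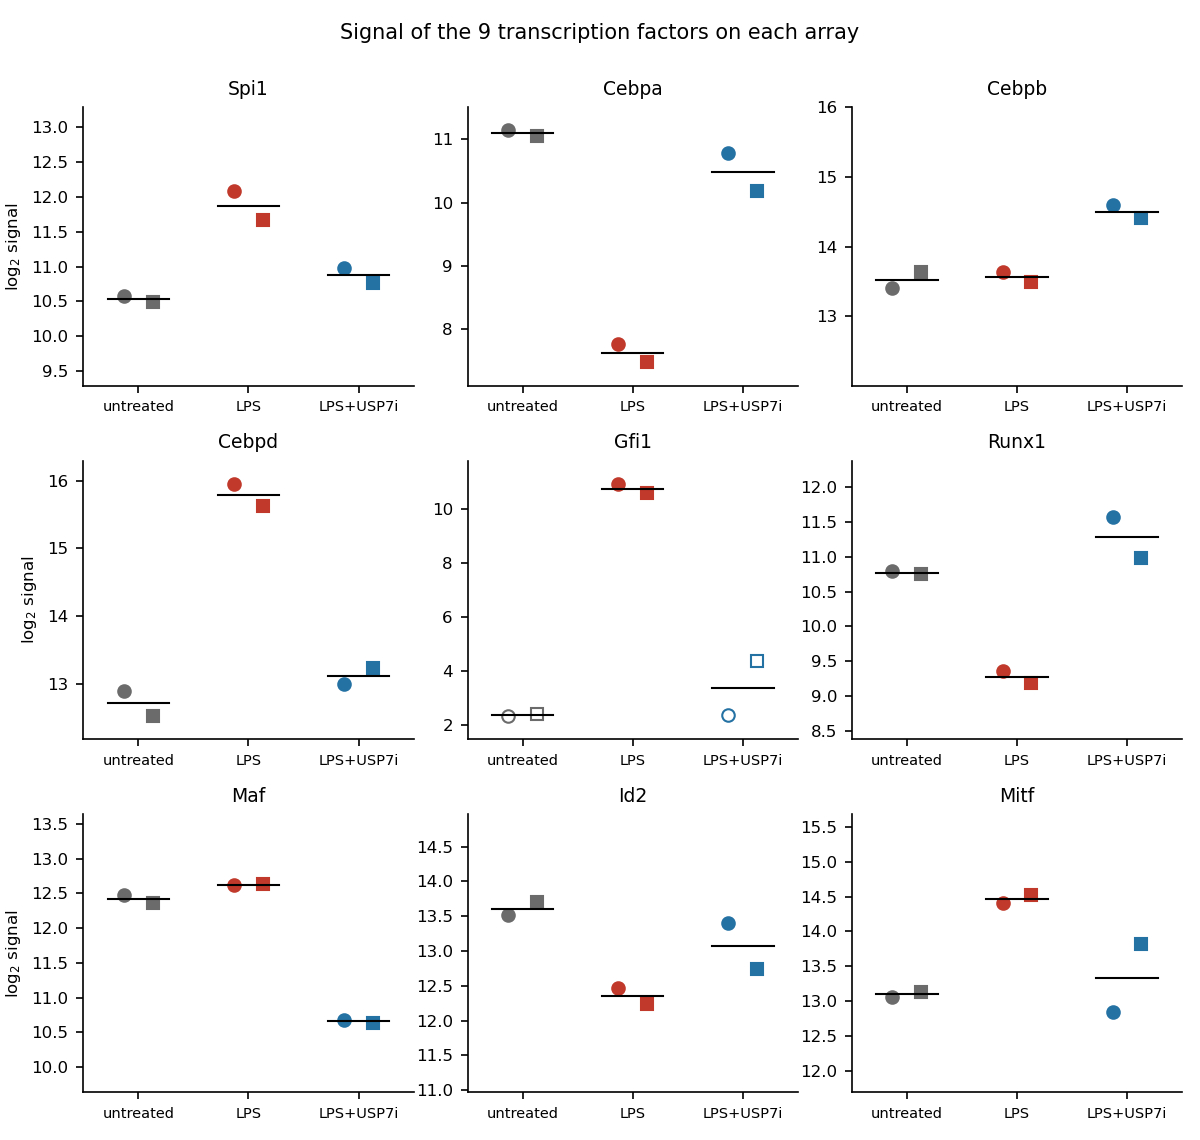
Normalized log2 signal (vertical axis, a scale of its own in each panel) of the 9 factors on the 6 arrays; circles are replicate 1, squares replicate 2, lines group means, and open symbols arrays on which the probe was not well above background. *Cebpa*, *Runx1* and *Id2* are lowest with LPS, *Spi1*, *Cebpd*, *Gfi1* and *Mitf* are highest with LPS, *Cebpb* is highest and *Maf* lowest with LPS+USP7i.

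These calls carry 2 limits. With arrays scaled to their 75th percentile in place of quantile normalization, the median of all genes shifted by 0.40 between LPS and untreated cells and 12150 genes were higher and 4048 lower, against 2775 and 4443. Under that scaling 6 factors were called higher with LPS, the added ones being *Cebpb*, *Maf* and *Mitf*, but relative to the shift *Cebpb* differed by 0.17, *Maf* by 0.19 and *Mitf* by 1.48. The comparison of LPS+USP7i with LPS rests on the untreated arrays for part of its estimate of spread: a limma fit of only these 2 groups called 0 factors and 0 of all genes, with a smallest adjusted p of 0.0561, although 3 factors were higher and 4 lower at an unadjusted p under 0.05, as were 4330 and 3674 of all genes. Without untreated replicate 1 or untreated replicate 2 the counts of factors called in that comparison were 0 and 0 as well. Without LPS replicate 1 or LPS replicate 2 they were 0 higher and 2 lower, again with 3 higher and 4 lower at an unadjusted p under 0.05. The count lower with LPS than in untreated cells was 1 without any single untreated or LPS array. Against untreated cells, 2 factors, *Gfi1*, too dim in both groups for its call to carry weight, and *Mitf* (0.72, adjusted p = 0.0459), were called higher in LPS+USP7i without LPS+USP7i replicate 1 and 0 without any other single array, where at least 1 was higher at an unadjusted p under 0.05.

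**Figure D2:**
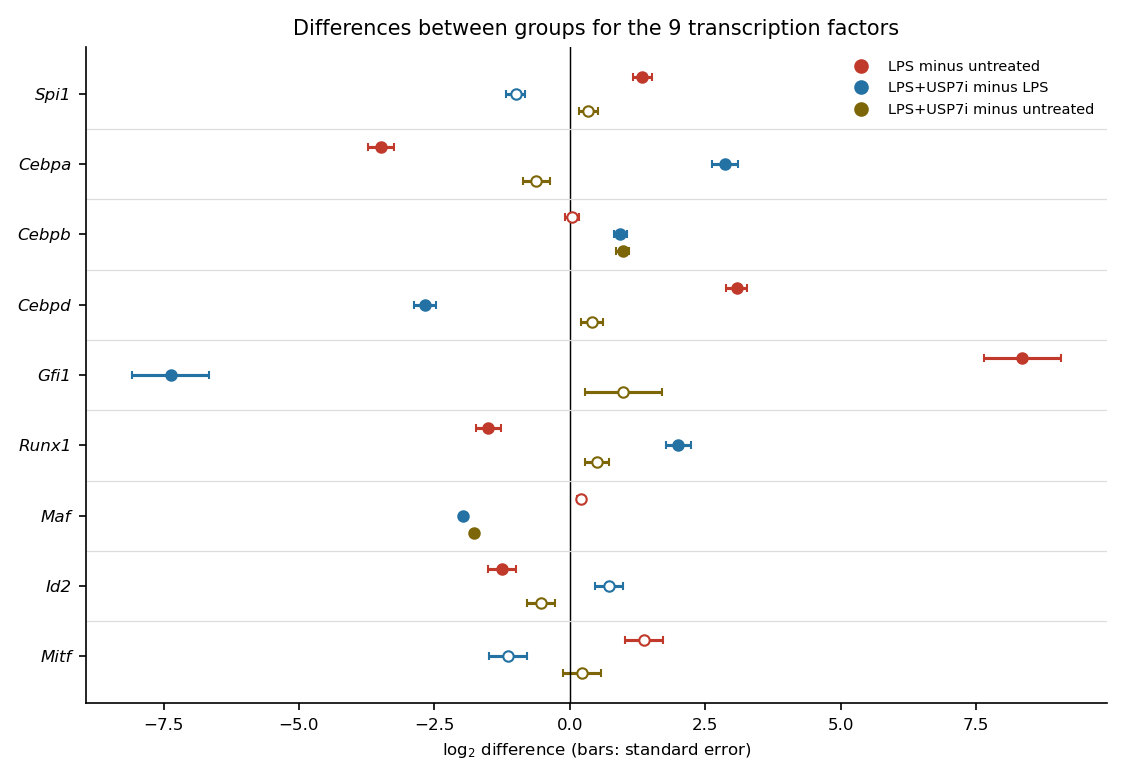
Log2 difference (horizontal axis) of each factor in the 3 comparisons, with bars for the standard error from limma; filled symbols have an adjusted p under 0.05. The differences of *Gfi1* are drawn against signals too dim to measure. Of the other factors, *Cebpd* lies furthest right and *Cebpa* furthest left with LPS.

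*Cebpa* had the deepest fall of the 9 with LPS and was close to its untreated level when the inhibitor was present. Its log2 signal was 11.14 and 11.05 (untreated), 7.76 and 7.47 (LPS), and 10.79 and 10.18 (LPS+USP7i). Both LPS arrays lay far below the other 4, and no groups overlapped. *Cebpa* was 11.2-fold lower with LPS, a log2 difference of −3.48 (SE 0.24, adjusted p = 0.00494). With the inhibitor it was 7.30-fold higher than with LPS alone, a log2 difference of 2.87 (SE 0.24, adjusted p = 0.0164). The remaining difference between LPS+USP7i and untreated cells was −0.61 (95% confidence interval −1.28 to 0.056, adjusted p = 0.233) and did not pass. The gain with the inhibitor did not pass without LPS replicate 1 (adjusted p = 0.0574) or LPS replicate 2 (adjusted p = 0.0617), in a range of 0.00054 to 0.0655 over 15 alternatives, while the difference itself ran from 2.47 to 3.17.

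*Cebpd* moved the other way. Its signal was 12.89 and 12.52 (untreated), 15.95 and 15.63 (LPS), and 12.999 and 13.23 (LPS+USP7i). The LPS arrays were far above the other 4, and no groups overlapped. *Cebpd* rose 8.48-fold with LPS (log2 difference 3.08, SE 0.20, adjusted p = 0.00439) and fell 6.39-fold from LPS to LPS+USP7i (log2 difference −2.68, adjusted p = 0.0144). LPS+USP7i and untreated cells differed by 0.41 (95% confidence interval −0.14 to 0.95, adjusted p = 0.335).

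*Cebpb* was the member that differed least between LPS and untreated cells at this time. It gave 13.41 and 13.63 (untreated), 13.63 and 13.50 (LPS), and 14.59 and 14.41 (LPS+USP7i). Untreated and LPS arrays overlapped, and both arrays of LPS+USP7i lay above all 4 others. The LPS difference was 0.040 (95% confidence interval −0.30 to 0.38, adjusted p = 0.946), positive between the arrays of replicate 1 and negative between those of replicate 2. *Cebpb* was 1.91-fold higher in LPS+USP7i than in LPS (log2 difference 0.94, SE 0.12, adjusted p = 0.0307). It was 1.97-fold higher in LPS+USP7i than in untreated cells (log2 difference 0.98, adjusted p = 0.0197). Both calls rested on all 6 arrays: without any single array, the adjusted p lay between 0.0588 and 0.109 against LPS and between 0.0519 and 0.0827 against untreated cells. The 3 C/EBP genes of this list thus had 3 different patterns over the same arrays, with *Cebpa* low, *Cebpd* high and *Cebpb* level in LPS.

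*Gfi1* was measurable only with LPS alone. Its log2 signal was 2.35 and 2.42 (untreated), 10.91 and 10.57 (LPS), and 2.38 and 4.36 (LPS+USP7i). On the scale of the scanner's processed signal, the LPS arrays read 1651 and 1563, whereas the other 4 arrays read between 4.38 and 19.48 and were not well above background. Because of that the fold is a lower bound: the mean of the LPS arrays was set against the dimmest signal counted as measurable on each of the other arrays, or against the probe's own signal there if that was higher. *Gfi1* was at least 114-fold higher with LPS than in untreated cells (adjusted p = 0.00665). It was at least 87.9-fold lower in LPS+USP7i than in LPS (adjusted p = 0.0192). The difference between LPS+USP7i and untreated cells is not read, since neither group was above background. The fall with the inhibitor did not pass without LPS replicate 1 (adjusted p = 0.083) or LPS replicate 2 (adjusted p = 0.0731), in a range of 0.00027 to 0.083 over the alternatives. The bounds hold for the processed signal only: after normexp correction, which adds an offset of 50 to every signal, the log2 differences were 4.33 and −4.21, smaller than the bounds, as were those on the deposited values.

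The 250 bases before the start sites of *Gfi1* and *Cebpa*, the members with the largest rise and the largest fall after LPS, are shown with those of *Runx1*, the next in size among the members that fell. They are RefSeq promoters of build GRCm38.p6, read on the strand of the gene, and capitals mark matches on either strand to the motifs of PU.1 (GAGGAAGT), C/EBP (TTGCNNAA), RUNX (TGTGGT), the MiT/TFE E-box (CACGTG), a core MAF site (TGCTGA) and a loose NF-κB pattern of GGG, any 5 bases and CC.
Gfi1, chr5:107725806-107726055, minus strand: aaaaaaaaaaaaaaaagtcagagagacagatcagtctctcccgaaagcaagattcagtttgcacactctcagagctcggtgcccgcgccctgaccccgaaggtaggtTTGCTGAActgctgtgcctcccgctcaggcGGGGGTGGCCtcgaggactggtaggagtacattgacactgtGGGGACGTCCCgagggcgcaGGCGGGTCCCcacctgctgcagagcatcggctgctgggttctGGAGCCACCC
Cebpa, chr7:35119043-35119292, plus strand: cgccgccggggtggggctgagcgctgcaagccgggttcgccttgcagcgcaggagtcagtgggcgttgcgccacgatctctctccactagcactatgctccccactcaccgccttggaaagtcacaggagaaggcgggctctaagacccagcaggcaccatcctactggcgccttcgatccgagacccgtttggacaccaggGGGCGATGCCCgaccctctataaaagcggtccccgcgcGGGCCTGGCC
Runx1, chr16:92826075-92826324, minus strand: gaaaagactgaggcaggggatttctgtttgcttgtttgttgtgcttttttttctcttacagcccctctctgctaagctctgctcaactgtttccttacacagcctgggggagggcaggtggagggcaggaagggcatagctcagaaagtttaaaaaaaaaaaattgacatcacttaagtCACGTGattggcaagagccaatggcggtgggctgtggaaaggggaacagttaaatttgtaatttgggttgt

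In this *Gfi1* promoter the C/EBP match TTGCTGAA lay 143 to 136 bases before the start site and held the core MAF site within it. The loose NF-κB pattern matched at 5 places, among them the palindrome GGGACGTCCC 71 to 62 bases before the start. The other *Gfi1* start site in the table had no match to any of the 6 motifs in its 250 bases, and the other *Runx1* start site had 1 match, to the loose NF-κB pattern. *Cebpa* had 3 places of the loose pattern and no match to the others, and the printed *Runx1* promoter had the E-box CACGTG 71 to 66 bases before the start. Of all 32851 promoters searched over the same length, 2.44% held the PU.1 motif, 9.56% the C/EBP motif, 14.0% the RUNX motif, 6.02% the E-box, 16.1% the core MAF site and 45.8% the loose NF-κB pattern. The table held 10 promoters for 6 of the 9 genes, and *Spi1*, *Cebpd* and *Maf* were not among them. No promoter of these 6 genes held the PU.1 motif as spelled here. A match is a description of the letters, not a binding site.

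*Spi1*, which encodes PU.1, was moderately higher with LPS. Its signal was 10.57 and 10.49 (untreated), 12.08 and 11.66 (LPS), and 10.98 and 10.76 (LPS+USP7i). Each LPS array was above every other array, and LPS+USP7i lay between the other groups without overlap. *Spi1* rose 2.53-fold with LPS (log2 difference 1.34, SE 0.18, adjusted p = 0.0162). The difference of LPS+USP7i from LPS was −1.001 (SE 0.18, adjusted p = 0.0526), which missed the threshold, and its adjusted p ran from 0.0152 to 0.143 over 15 alternatives, 5 of which passed. The rise with LPS did not pass without untreated replicate 1 (adjusted p = 0.0801) or untreated replicate 2 (adjusted p = 0.0918), the highest of a range that began at 0.00334. LPS+USP7i and untreated cells differed by 0.34 (adjusted p = 0.374).

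*Runx1* was measured by 2 probes, and both were lowest with LPS. The brighter probe gave 10.79 and 10.75 (untreated), 9.36 and 9.19 (LPS), and 11.58 and 10.98 (LPS+USP7i). On the dimmer probe the values were 10.21 and 10.27, 8.41 and 8.50, and 9.76 and 9.39 in the same order. LPS+USP7i was therefore the highest group on the brighter probe and the middle group on the dimmer, with no overlap on either. With LPS the brighter probe fell 2.83-fold (SE of the log2 difference 0.23, adjusted p = 0.0221) and the dimmer 3.45-fold (SE 0.14, adjusted p = 0.00612). With the inhibitor they rose by 2.005 (SE 0.23, adjusted p = 0.0239) and 1.12 (SE 0.14, adjusted p = 0.0289) over LPS. Against untreated cells the probes differed in sign, 0.50 (adjusted p = 0.293) and −0.67 (adjusted p = 0.0628), and neither passed. For the brighter probe the fall with LPS did not pass without any single untreated or LPS array (adjusted p between 0.0868 and 0.107), and the rise with the inhibitor did not pass without LPS replicate 1 (adjusted p = 0.0888) or LPS replicate 2 (adjusted p = 0.0927).

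*Maf*, like *Cebpb*, set LPS+USP7i apart from both other groups, but in the lower direction. The brighter of its 2 probes gave 12.48 and 12.37 (untreated), 12.62 and 12.64 (LPS), and 10.68 and 10.64 (LPS+USP7i). The dimmer probe, aligned to another transcript of the gene, gave 8.82 and 8.62, 8.43 and 8.40, and 7.42 and 6.85. LPS+USP7i was the lowest group on both, and the order of untreated and LPS cells differed between the probes. The brighter probe was 3.91-fold lower in LPS+USP7i than in LPS (log2 difference −1.97, SE 0.067, adjusted p = 0.00987) and 3.39-fold lower than in untreated cells (log2 difference −1.76, SE 0.067, adjusted p = 0.00454). The dimmer probe was 2.42-fold (adjusted p = 0.0492) and 2.997-fold lower (adjusted p = 0.0232) in these comparisons. LPS alone gave 0.20 (adjusted p = 0.144) and −0.31 (adjusted p = 0.495) on the brighter and dimmer probe, neither past the threshold. In a limma fit of only LPS+USP7i and LPS arrays, the difference of the brighter probe was again −1.97 but did not pass (adjusted p = 0.0561). The difference from untreated cells passed under all 15 alternatives, with a highest adjusted p of 0.0377.

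*Id2* was lower with LPS, with a wide spread among the inhibitor-treated cells. It gave 13.51 and 13.70 (untreated), 12.46 and 12.24 (LPS), and 13.41 and 12.74 (LPS+USP7i). The LPS arrays were lowest, and LPS+USP7i lay between the other groups without overlap. *Id2* fell by 1.25 (SE 0.26, adjusted p = 0.0484), 2.39-fold, with LPS. The difference of LPS+USP7i from LPS was 0.72 (95% confidence interval −0.0043 to 1.45, adjusted p = 0.222). The fall with LPS did not pass without any single untreated or LPS array, at adjusted p values between 0.137 and 0.198, in a range that began at 0.00728 over the alternatives.

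*Mitf* had a high signal with LPS on both of its probes, but whether it was called varied with the fit and the processing. The brighter probe gave 13.06 and 13.13 (untreated), 14.41 and 14.53 (LPS), and 12.84 and 13.82 (LPS+USP7i). The dimmer gave 11.70 and 11.68, 13.19 and 13.21, and 11.44 and 12.50. Both LPS arrays were above all others on each probe, and the arrays of LPS+USP7i fell on either side of the untreated ones. The LPS difference was 1.37 (SE 0.35, adjusted p = 0.0787) and 1.51 (SE 0.38, adjusted p = 0.0743) on the probes, neither past the threshold. Without LPS+USP7i replicate 1 or replicate 2, which shared in the estimate of spread, the adjusted p of the brighter probe was 0.012, in a range of 0.012 to 0.251. With all 6 arrays it was 0.017 after normexp correction, 0.0187 under scaling to the 75th percentile and 0.0204 with dim probes left out. LPS+USP7i differed from LPS by −1.14 (adjusted p = 0.16) on the brighter probe and by −1.23 (adjusted p = 0.156) on the dimmer. On the brighter probe this ran from −0.65 to −1.63 over the alternatives and passed without LPS+USP7i replicate 2 (adjusted p = 0.0244, in a range of 0.0244 to 0.378).

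**Figure D3:**
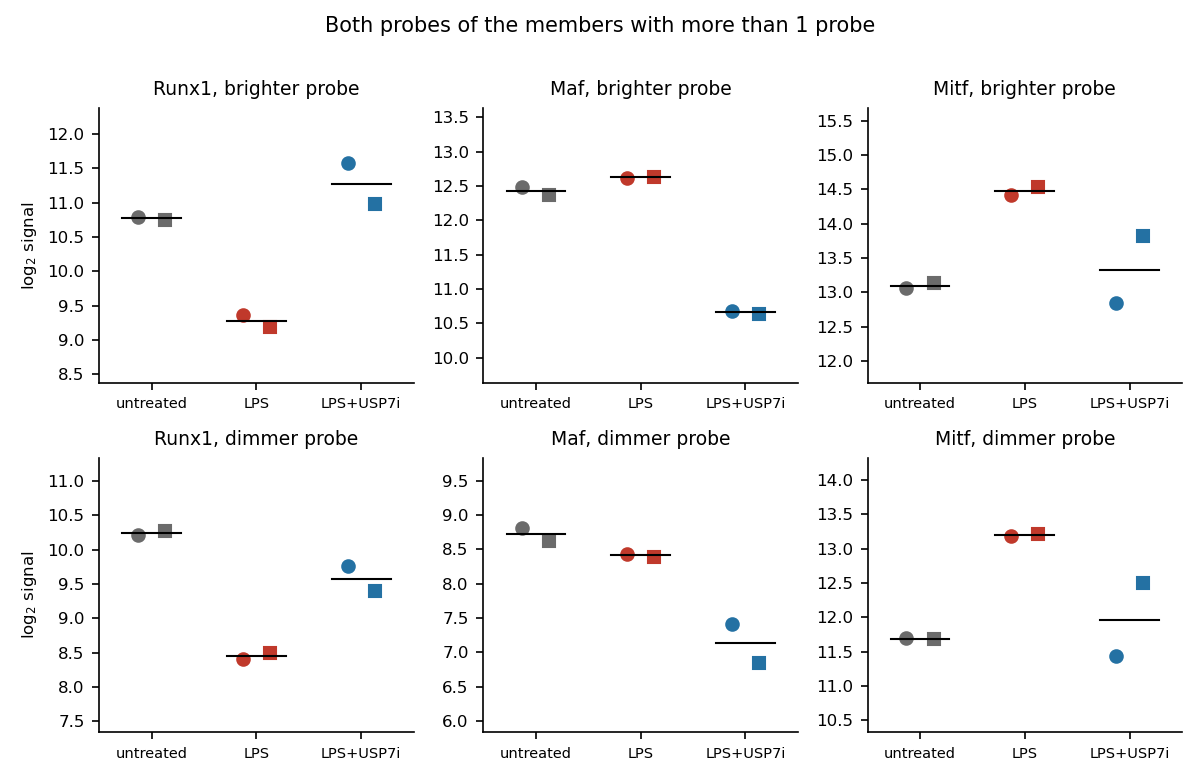
Normalized log2 signal (vertical axis, a scale of its own in each panel) on each array for the brighter and dimmer probes of *Runx1*, *Maf* and *Mitf*, with symbols as in the plot of the 9 factors. The order of the groups is the same on both probes of *Mitf*; LPS+USP7i is above untreated cells only on the brighter probe of *Runx1*, and LPS is above untreated cells only on the brighter probe of *Maf*.

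For each factor the genes with the most similar pattern over the 6 arrays were sought among 11659 genes well above background on every array, by the root mean square distance between centred log2 values. *Cebpa* lay nearest to *Flcn* (distance 0.095, Pearson r = 0.999) and *Fnip2* (0.138), which encode folliculin and a partner of folliculin. *Flcn* had 12.71 and 12.49 (untreated), 9.45 and 9.16 (LPS), and 12.36 and 11.66 (LPS+USP7i). *Cebpd* lay nearest to *Gbp10*, a guanylate-binding protein gene (0.167), and *Lcn2*, which encodes lipocalin 2 (0.173). For *Gfi1*, which was too dim on 4 arrays for a distance to genes measured on all of them to be read, no neighbour is given. *Maf* lay nearest to *Pik3cd*, a phosphoinositide 3-kinase gene (0.171), and *Camkk2*, a calmodulin-dependent kinase gene (0.195). *Camkk2* had 13.75 and 13.34 (untreated), 13.91 and 13.81 (LPS), and 12.15 and 12.22 (LPS+USP7i). For *Runx1* the nearest were *B4galnt2* and *Rora*, for *Spi1* *C1ra* and *Zfp281*, for *Cebpb* *Utp4* and *Nup50*, for *Id2* *Tusc1* and *Trim39*, and for *Mitf* *Zfp777* and *Rbfox2*, at distances of 0.052 to 0.11.

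Among 38 relatives and partners of the 9 factors, 9 were higher and 9 lower with LPS, and 3 were higher and 5 lower with the inhibitor than with LPS alone. These are 23.7% and 23.7%, and 7.89% and 13.2%, beside 7.98% and 12.8%, and 5.52% and 4.27%, of all genes. Their median log2 differences were −0.036 and 0.083. Without 1 of the untreated or LPS arrays the numbers higher with LPS were 4 or 5, and those lower were 4 to 7. In a limma fit of only LPS+USP7i and LPS arrays, 0 passed in either direction, where 11 were higher and 7 lower at an unadjusted p under 0.05. Leaving out either untreated array also ended all calls of relatives with the inhibitor. Leaving out any single LPS or LPS+USP7i array left some calls in both directions.

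In the C/EBP family *Cebpg*, which encodes a partner of other C/EBP proteins, was lower with LPS (log2 difference −1.09, adjusted p = 0.00658) and higher with the inhibitor than with LPS (1.15, adjusted p = 0.0153). The 4 listed relatives had a median of −0.83 with LPS and 0.74 with the inhibitor, and only *Cebpg* passed. Among 8 ETS relatives of PU.1, *Etv6* rose by 3.66 (SE 0.21) and *Ets2* by 2.35 (SE 0.26) with LPS, while *Fli1* fell by 2.17 (SE 0.22) and *Ets1* by 1.77 (SE 0.28). With the inhibitor *Etv6*, a repressor, was 2.32 lower than with LPS (adjusted p = 0.0182), and the values of the others did not pass, at 0.25 for *Ets2*, 0.24 for *Fli1* and 1.10 for *Ets1*. The largest ETS difference with the inhibitor, 3.20 for *Spic*, a close relative of *Spi1*, did not pass either (SE 0.71, adjusted p = 0.0826), with 6.68 and 5.21 (untreated), 6.70 and 5.36 (LPS), and 9.41 and 9.05 (LPS+USP7i). *Irf8*, which pairs with PU.1 on composite sites, rose by 1.42 (SE 0.23, adjusted p = 0.0267) with LPS. It was 8.75-fold lower when the inhibitor was added to LPS (log2 difference −3.13, SE 0.23, adjusted p = 0.0144).

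The small MAF genes, whose products lack an activation domain, differed among themselves. *Maff* rose by 4.26 (SE 0.24) and *Mafk* by 2.41 (SE 0.15) with LPS, whereas *Mafg* fell by 0.98 (SE 0.069). In LPS+USP7i against LPS, *Mafg* rose by 2.42 (SE 0.069, adjusted p = 0.00987), and *Maff* at 1.15 (adjusted p = 0.0757) and *Mafk* at 0.22 did not pass.

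All 3 MiT/TFE relatives of MITF passed with LPS. *Tfec* rose by 4.15 (SE 0.46), *Tfeb* fell by 3.36 (SE 0.30) and *Tfe3* fell by 0.79 (SE 0.056). With the inhibitor *Tfe3* was 0.37 higher than with LPS (adjusted p = 0.039), *Tfeb* gave 1.39 (adjusted p = 0.0789) and *Tfec* gave −0.30 (adjusted p = 0.796). Of the ID and E proteins, *Tcf4* gave 1.19 with LPS and −1.495 with the inhibitor, both past the threshold (adjusted p = 0.0136 and 0.0193), and *Tcf3* fell by 1.02 with LPS (adjusted p = 0.0146) and gave −0.19 with the inhibitor. *Runx3* was 0.85 higher with LPS and 0.71 lower with the inhibitor (adjusted p = 0.00971 and 0.0279), and *Cbfb*, the shared partner of the RUNX proteins, gave −0.31 and −0.38 without passing, the former positive under scaling to the 75th percentile, by less than the shift of all genes. Of the corepressors of GFI1, *Hdac1* was 0.82 higher with LPS and 0.77 lower with the inhibitor (adjusted p = 0.0162 and 0.0342), and *Rcor1* was lower with LPS at −0.83 (adjusted p = 0.0148) and gave 0.082 with the inhibitor, of the opposite sign under scaling to the 75th percentile.

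**Figure D4:**
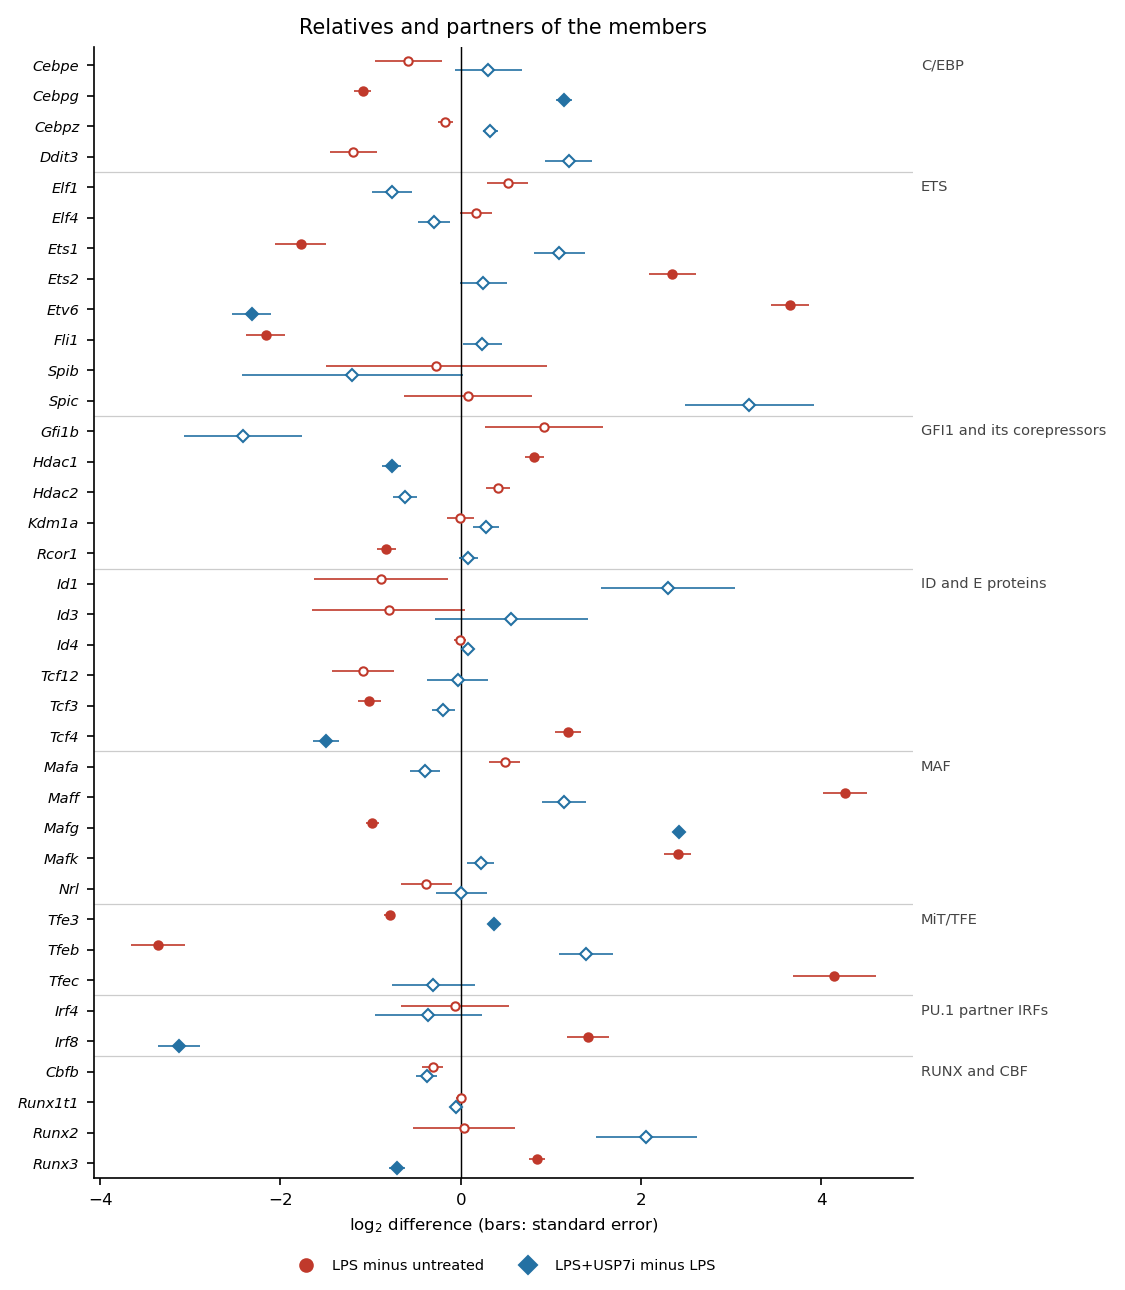
Log2 difference (horizontal axis) of relatives and partners by family, for LPS minus untreated (circles) and LPS+USP7i minus LPS (diamonds), with bars for the standard error; filled symbols have an adjusted p under 0.05. *Maff* and *Tfec* lie furthest right and *Tfeb* furthest left with LPS among the genes shown, and *Irf8* furthest left with the inhibitor.

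Of 68 listed target genes of these factors, 14 were higher and 12 lower with LPS, and 3 were higher and 9 lower with the inhibitor than with LPS alone. These are 20.6% and 17.6%, and 4.41% and 13.2%, beside the same shares of all genes as for the relatives. The medians were −0.12 and −0.12. Scaling to the 75th percentile gave 23 higher and 5 lower with LPS, against the shift of all genes given above. Leaving out 1 array left between 9 and 12 higher and between 1 and 6 lower with LPS. With the inhibitor, 0 passed in limma in either direction without untreated replicate 1 or untreated replicate 2, where 8 were higher and 21 lower at an unadjusted p under 0.05. In that comparison 0 were higher and 1 lower without LPS replicate 1 or LPS replicate 2, and 0 were higher and 3 lower without LPS+USP7i replicate 1. Without LPS+USP7i replicate 2 the counts were 2 and 3. Genes of these lists named below the largest 3 changes of a list were chosen after their values were seen.

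The C/EBP list, 14 inflammatory and acute-phase genes, had 8 higher (57.1%) and 0 lower with LPS in limma, beside 7.98% and 12.8% of all genes, and a median of 2.77. At an unadjusted p under 0.05 the same list had 9 higher and 0 lower, and all genes had 4350 and 7156. *Il6* rose by 11.86 (SE 0.57) and *Il1b* by 10.03 (SE 0.73), and *Ptgs2* rose too (adjusted p = 0.00258) but is given no size, as 1 of its untreated arrays was not above background. Without LPS replicate 1 or LPS replicate 2, 5 of the list were higher with LPS. With the inhibitor 3 of the 14 (21.4%, beside 4.27% of all genes) were lower than with LPS. These were *Nos2* by 27.8-fold (log2 difference −4.80, adjusted p = 0.02), *Saa3*, an acute-phase gene, by 7.82-fold (−2.97, adjusted p = 0.0399) and *Lcn2* by 5.84-fold (−2.55, adjusted p = 0.0237). *Il1b* at −3.82 (adjusted p = 0.0607), *Ptx3* at −3.26 (adjusted p = 0.122), *Il6* at −2.55 (adjusted p = 0.0831) and *Ptgs2* at −1.33 (adjusted p = 0.108) did not pass. The number lower with the inhibitor depended on the processing: 7 on the deposited values, 8 after normexp correction and 8 with dim probes left out, but 0 in limma without any single untreated or LPS array and 1 without either LPS+USP7i array. At an unadjusted p under 0.05, 8 of the list were lower, and at least 5 without any single array.

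Of 20 genes listed for PU.1, *Cd14*, the LPS coreceptor gene, and *Cybb*, which encodes a subunit of the phagocyte oxidase, were higher with LPS at 1.69 (SE 0.12) and 1.39 (SE 0.10). *Tlr4* (−0.80), *Btk* (−0.70), *Itgam* (−0.66), *Csf2ra* (−0.45) and *Mpeg1* (−0.30) were lower. These calls are 10% of the list higher and 25% lower, beside 7.98% and 12.8% of all genes. *Csf2ra* and *Mpeg1* were positive under scaling to the 75th percentile, though by less than the shift of all genes. Under that shift 6 of the list were higher and 0 lower in limma, with 7 higher and 2 lower at an unadjusted p under 0.05, beside the 12150 and 4048 of all genes. With 1 array left out the number lower with LPS was 0 (untreated replicate 1 or 2), 1 (LPS replicate 1) or 2 (each of the others), with at least 5 lower at an unadjusted p under 0.05. With the inhibitor 4 (20%, beside 4.27% of all genes) were lower than with LPS: *Fcgr1*, a high-affinity IgG receptor gene, at −1.602 (adjusted p = 0.0317), *Cd14* at −1.31 (adjusted p = 0.0184), *Ncf1*, of the same oxidase, at −1.20 (adjusted p = 0.013) and *Cybb* at −0.92 (adjusted p = 0.0236). These were 0 in limma without either untreated array, with 7 lower at an unadjusted p under 0.05, 1 without either LPS array and 2 without either LPS+USP7i array. The median of the list was −0.28 with LPS and −0.096 with the inhibitor.

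The MAF list of 11 genes gave *Il10*, an anti-inflammatory cytokine gene, as higher with LPS (log2 difference 2.98, SE 0.44, adjusted p = 0.0212). *Stab1*, a scavenger receptor gene, was lower (−1.28, adjusted p = 0.0145). Each is 9.09% of the list, beside 7.98% higher and 12.8% lower of all genes. In a fit of only LPS and untreated arrays 0 of the list were higher in limma, and 1 at an unadjusted p under 0.05. Leaving out some single arrays also ended each of these calls. With the inhibitor, where *Maf* itself was lower, 0 of the 11 passed in limma in either direction. The shares of all genes were 5.52% higher and 4.27% lower. At an unadjusted p under 0.05, 0 of the list were higher and 2 lower, beside 4989 and 4060 of all 34787 genes. *Il10* gave −1.48 (adjusted p = 0.15). After normexp correction, or with dim probes left out, 2 of the list passed as lower. The median of the list was −0.13 with LPS and −0.11 with the inhibitor. In the MiT/TFE list of 14 genes, *Sqstm1*, the gene of the autophagy receptor p62, was higher with LPS (1.68) and higher again with the inhibitor (1.56, adjusted p = 0.0327). *Atp6v0d2*, a subunit of the lysosomal proton pump, was lower with LPS (−0.67, adjusted p = 0.0233) and higher with the inhibitor (0.79, adjusted p = 0.0298). The calls higher with the inhibitor are 14.3% of the list, beside 5.52% of all genes. In a fit of only LPS+USP7i and LPS arrays 0 of the list passed in limma, with 3 higher at an unadjusted p under 0.05. Leaving out some single arrays ended these calls too. *Ostm1* was lower with LPS (−0.85, adjusted p = 0.0369). The calls of this list with LPS are 7.14% higher and 14.3% lower, close to the 7.98% and 12.8% of all genes. On the deposited values 0 of the list were lower with LPS in limma, and 4 at an unadjusted p under 0.05. Leaving out some single arrays ended all calls of this list with LPS. Under scaling to the 75th percentile, with its shift of all genes, 3 of this list were higher and 0 lower with LPS in limma. All 34787 genes had 12150 higher and 4048 lower under that scaling. At an unadjusted p under 0.05 the list had 4 and 0. Of 9 genes reported as repressed by GFI1, *Csf1* (4.99) and *Cdkn1a* (2.495) were higher with LPS. *Ets1* (−1.77), *Egr2* (−1.69) and *Meis1* (−0.98) were lower, as was *Hoxa9*, which was not above background with LPS and is given no value. These calls are 22.2% of the list higher and 44.4% lower, beside 7.98% and 12.8% of all genes. A part of GFI1 in them was not tested. Without any single array, 1 of this list was lower with LPS. With the inhibitor *Egr2* was higher (1.73, adjusted p = 0.0372) and *Nab2* (−1.13, adjusted p = 0.0297) and *Cdkn1a* (−1.06, adjusted p = 0.0347) were lower than with LPS. They make up 11.1% and 22.2% of the list, beside 5.52% higher and 4.27% lower of all genes. A limma fit of only LPS+USP7i and LPS arrays called 0 of the list, with 2 higher and 4 lower at an unadjusted p under 0.05. Leaving out some single arrays also ended these calls.

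**Figure D5:**
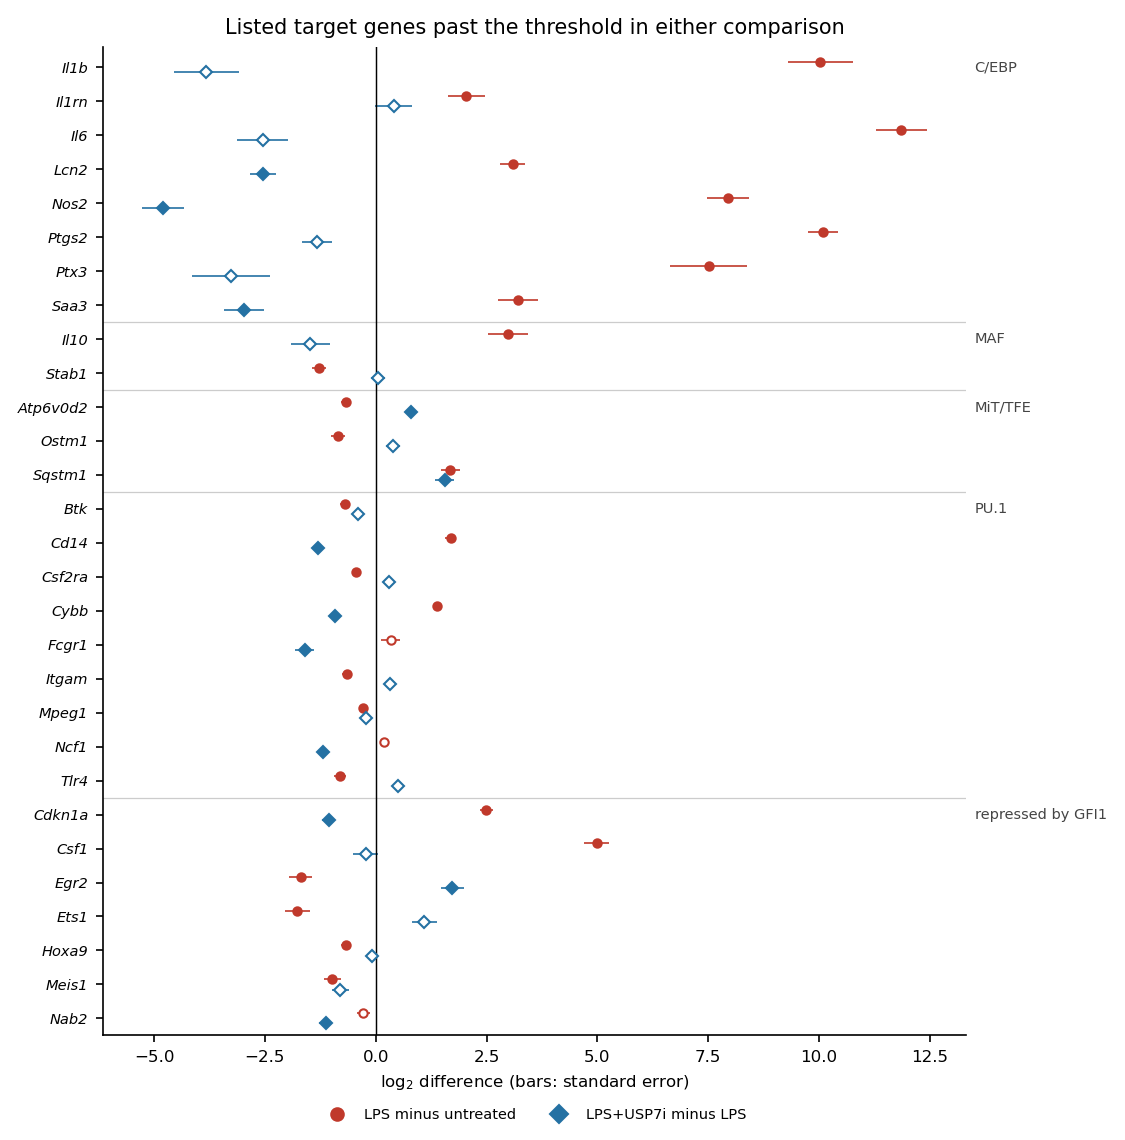
Log2 difference (horizontal axis) of the listed target genes past the threshold in either comparison, by the factor they are listed for, for LPS minus untreated (circles) and LPS+USP7i minus LPS (diamonds), with bars for the standard error; filled symbols have an adjusted p under 0.05. *Il6* and *Il1b* are among those furthest right with LPS and *Nos2* is furthest left with the inhibitor. *Hoxa9* was too dim with LPS, and *Ptgs2* and *Ptx3* were too dim on 1 untreated array, for these differences to be read as exact.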

How the data were processed

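RNA of 6 samples was hybridized to 1-color Agilent arrays on 1 slide, on which array position and treatment cannot be told apart. Per the file headers, the intensity values were background-subtracted and detrended within each array by Feature Extraction 10.7.3.1, with probe positions on mm9, and were not normalized between arrays. The deposited log2 values were quantile-normalized by the authors and served as an alternative. Here the processed intensities were log2-transformed and quantile-normalized, spots marked as outliers were left out, and spots were averaged per probe. The 3 groups were fitted with limma 3.58.1 in R 4.3.3, with Benjamini–Hochberg adjustment over 55680 probes and a threshold of 0.05, and the brightest probe stood for a gene. An exact permutation test of 2 against 2 arrays cannot go below 0.333. Members and lists were chosen with earlier results of these data known. All members are named, and of each list the 3 largest changes past the threshold without overlap of groups, besides family relatives and partners. The fit was tested on simulated data in which few probes changed, and returned the sizes set there. In that simulation it called none of those of 1 log2 unit and missed a part of those of 2 or 3. The share called depends on how many probes change, so it does not carry over to these data. Alternatives covered normalization, background, filters, prior, fit, probe, threshold and each array left out. Some genes of the lists are counted but not reported singly here.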

Additional observations from a re-analysis of the deposited data

How the results depend on the processing

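Each array left out leaves a group with 1 sample, assumed to vary like the others. Over the alternatives, the members' log2 differences kept direction and side of the threshold in 337 cases, lost it in 47, gained it in 16 and reversed in 5; for list genes these were 1155, 292, 37 and 16. With 75th percentile scaling 6 members and 23 targets were higher and 5 targets lower with LPS. For LPS+USP7i against LPS, normexp gave 8 relatives higher, 6 targets higher and 17 lower, beside 2882 higher and 2375 lower of all 34787 genes. Leaving dim probes out gave 9, 5 and 18, beside 2774 and 2360 of the 18328 genes kept. Deposited values gave 3 relatives lower in that comparison and 6 targets lower with LPS. The 2-group fit, with fewer samples, gave 0 members, relatives or targets in either direction for LPS+USP7i against LPS, 0 members higher against untreated cells, and 6 targets lower with LPS. A minimum log2 difference of 1 gave 0 members higher against untreated cells, 3 relatives lower with the inhibitor and 3 targets lower with LPS. Arrays with the same replicate number deviate together (correlations of replicate differences 0.468, 0.398 and 0.422), but the number also runs with a slide position, and 2 pairs per comparison do not show what is shared. A replicate block gave 0 targets higher with the inhibitor, 12 at an unadjusted p under 0.05, and 1 of the MAF list lower. Of the member calls it changed *Id2* with LPS (adjusted p = 0.0654), and *Cebpb* (0.0636) and *Spi1* (0.0478, now past the threshold) for LPS+USP7i against LPS. With 1 array left out, members ran from 1 to 3 lower with LPS, 0 to 2 higher and 0 to 4 lower with LPS+USP7i against LPS, and 0 to 2 higher against untreated cells; relatives from 4 to 8 higher and 4 to 10 lower with LPS, 0 to 7 higher and 0 to 5 lower with the inhibitor; targets from 9 to 12 higher and 1 to 6 lower with LPS, 0 to 2 higher and 0 to 3 lower with the inhibitor. Reversed under 75th percentile scaling were, with LPS, *Cbfb* (0.20), *Csf2ra* (0.15), *Mpeg1* (0.26) and *Nab2* (0.033), all below the shift of all genes under that scaling (0.403), and for LPS+USP7i against LPS *Rcor1* (−0.027), *Stab1* (−0.14) and *Hoxa9* (0.097). *Hoxa9*, below background in both groups there, was also reversed with normexp (0.084) and deposited values (0.36). *Runx1* against untreated cells was −0.67 with the probe of smallest F-test p. Reversed with 1 array left out were *Cebpb* with LPS (−0.072 to 0.15, and −0.027 without LPS replicate 1); for LPS+USP7i against LPS *Csf1* (−0.56 to 0.11), *Fli1* (−0.0099 to 0.49), *Hoxa9* (−0.22 to 0.026), *Rcor1* (−0.017 to 0.18), *Stab1* (−0.12 to 0.22, and −0.040 without LPS replicate 2) and *Tfec* (−0.88 to 0.28); and against untreated cells *Gfi1* (−8.31e-05 to 1.98, below background in both groups) and *Mitf* (−0.25 to 0.72). The cause was not tested. Signal over background limits *Gfi1*, whose folds are lower bounds.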

Other observations

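Of 10 factors of blood progenitors, 2 were higher and 3 lower with LPS (20% and 30%, beside 7.98% and 12.8% of all genes). In LPS+USP7i against LPS, 0 were higher and 2 lower (0% and 20%, beside 5.52% and 4.27%). *Meis1* and *Hoxa9*, also lower with LPS, are named above among the genes repressed by GFI1. *Ikzf1*, the gene of the zinc finger factor Ikaros, had 8.59 and 8.29 (untreated), 12.21 and 12.31 (LPS), and 8.38 and 9.67 (LPS+USP7i). Its log2 difference was 3.82 with LPS (adjusted p = 0.0137) and −3.24 for LPS+USP7i against LPS (adjusted p = 0.0359). *Tal1*, a bHLH factor of stem and erythroid cells, had 10.42 and 10.05, 11.11 and 10.98, and 9.54 and 9.31, with differences of 0.81 (adjusted p = 0.0463) and −1.62 (adjusted p = 0.0211). *Lmo2*, which encodes a partner of TAL1, had 14.02 and 14.08, 12.76 and 12.96, and 12.69 and 12.77, with −1.19 with LPS (adjusted p = 0.00613) and −0.13 with the inhibitor (adjusted p = 0.55).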
